A study of Homo sapiens with 9 samples.

Results

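The 10 genes described here encode some of the apolipoproteins other than apoB that are found on plasma lipoproteins: APOA1, APOA2, APOA4, APOA5, APOC1, APOC2, APOC3, APOE, APOH and APOM. They were chosen by gene symbol and not by a threshold on a measured value, though with earlier results of these data known, and are 10 of the 58735 genes in the count table. Poly(A) RNA of Huh-7, a cell line from a human liver tumour, was sequenced in 3 groups of 3 libraries each. The groups were wild-type Huh-7 control cells, Ako-3 cells (genotype APOB knock out) and Mko-3 cells (genotype MTTP knock out). Both knockouts were made in Huh-7 cells by genome editing, and each is 1 clone, so a feature of the clone and an effect of the lost gene cannot be told apart. Cells of every group were grown in DMEM with fetal bovine serum and kept overnight without serum before RNA extraction. The labels describe the growth of Mko-3 cells in an entry apart from that of the other groups. Whether all groups were grown and sequenced together is not stated, so a batch and the Mko-3 group cannot be told apart. The labels call the 3 libraries of a group biological replicates of 1 line, and p-values therefore measure the spread between those cultures only. The control libraries served in both comparisons with a knockout.

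Apolipoproteins are amphipathic or lipid-binding proteins that hepatocytes secrete to solubilise lipid and to steer lipoproteins in plasma. ApoB is the non-exchangeable scaffold of VLDL and LDL and is lipidated by microsomal triglyceride transfer protein, the product of MTTP. The proteins treated here move between particles: apoA-I and apoA-II are the main proteins of HDL, apoE is a ligand of lipoprotein receptors, the apoC proteins and apoA-V regulate lipolysis of triglyceride-rich particles, apoM carries sphingosine 1-phosphate, and apoH is a phospholipid-binding plasma glycoprotein.

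In hg38, the build of the deposited coordinates, 7 of the genes lay in a pair of clusters. APOA5, APOA4, APOC3 and APOA1 spanned 48.6 kb at chr11:116789367-116837950, with APOC3 on the plus strand and the other 3 on the minus strand. APOE, APOC1 and APOC2 spanned 43.8 kb at chr19:44905754-44949565, all on the plus strand. APOA2 lay at chr1:161222292-161223631 on the minus strand, APOH at chr17:66212033-66256525 on the minus strand and APOM at chr6:31652416-31658210 on the plus strand.

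Promoter windows were read from RefSeq sequence of GRCh38.p14, which held 8 of the 10 genes (not APOA1 and APOC3) in 11 windows, cut here to the 250 bases before each start site. The windows of APOA2, APOA5 and APOH are shown because these genes passed a log2 difference of 1 in at least 1 comparison, and that of APOA4 because it was the 1 gene higher in Mko-3 than in Ako-3 cells. The APOA2 window is chr1:161223629-161223878 on the minus strand, that of APOA4 is chr11:116823305-116823554 on the minus strand, that of APOA5 is chr11:116792421-116792670 on the minus strand, and that of APOH is chr17:66229416-66229665 on the minus strand, inside the longer gene span of the deposited annotation. Letters run 5′ to 3′ and end at the base before the start site. Capitals mark matches to the motifs listed after the sequences.
APOA2: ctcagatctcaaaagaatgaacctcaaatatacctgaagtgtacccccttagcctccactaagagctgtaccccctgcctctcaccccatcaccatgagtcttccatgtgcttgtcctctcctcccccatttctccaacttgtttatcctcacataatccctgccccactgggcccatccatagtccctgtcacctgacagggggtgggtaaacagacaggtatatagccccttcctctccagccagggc
APOA4: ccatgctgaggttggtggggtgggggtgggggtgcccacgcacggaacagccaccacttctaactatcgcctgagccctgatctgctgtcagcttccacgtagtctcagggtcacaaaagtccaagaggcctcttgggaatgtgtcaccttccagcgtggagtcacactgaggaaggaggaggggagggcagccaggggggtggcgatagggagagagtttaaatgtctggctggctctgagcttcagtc
APOA5: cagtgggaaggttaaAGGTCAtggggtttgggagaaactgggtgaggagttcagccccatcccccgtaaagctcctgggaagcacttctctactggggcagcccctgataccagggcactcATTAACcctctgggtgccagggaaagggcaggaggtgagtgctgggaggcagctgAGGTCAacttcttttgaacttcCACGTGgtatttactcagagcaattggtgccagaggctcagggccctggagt
APOH: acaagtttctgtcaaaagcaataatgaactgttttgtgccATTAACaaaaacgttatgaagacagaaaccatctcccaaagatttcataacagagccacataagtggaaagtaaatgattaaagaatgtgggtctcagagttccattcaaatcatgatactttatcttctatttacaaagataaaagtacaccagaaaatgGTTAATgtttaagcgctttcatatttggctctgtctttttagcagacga

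Both strands were searched for 6 motifs, and no match in these windows overlapped another. AGGTCA, the nuclear receptor half-site, was present in 12.1% of 35116 promoter windows of the same length. GTTAAT, a half-site of HNF1, was present in 6.23% and CACGTG, the E-box bound by USF, in 6.34%. TATAAA was present in 10.7%, TTGCNNAA, a C/EBP motif, in 9.05% and CAAAGTCCA, an HNF4 motif, in 0.325%. The APOA5 window held AGGTCA at 235 and 74 bases before the start (positions -235 and -74), GTTAAT on the reverse strand at -129 and CACGTG at -52. The APOH window held GTTAAT on the reverse strand at -210 and on the forward strand at -49. These letters were not in the windows of APOA2 and APOA4, which says nothing about the factors. Of the windows not printed, a further APOA5 window held AGGTCA at -156, and the APOC2 window held AGGTCA on the reverse strand at -156 and TATAAA at -30. The windows of APOC1, APOE and APOM held none of the 6. A match is a string of letters and not a binding site.

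Total counts ranged from 14638727 to 20179760 per library, and all 10 genes passed the low-count filter in all 3 comparisons. The targeted genes were checked first. APOB counts were 21863 to 24701 in Ako-3, 49956 to 69752 in Huh-7 and 49802 to 59666 in Mko-3 libraries, and its log2 fold change was -1.36 (SE 0.13, edgeR adjusted p = 7.13e-05) in Ako-3 cells. MTTP counts were 1271 to 1587 in Mko-3 and 9144 to 11941 in Huh-7 libraries, with a log2 fold change of -2.88 (SE 0.07, edgeR adjusted p = 9.36e-19). Both differences ran in the direction of the labels. Hepatocyte markers summed to 4499 to 4640 FPKM in Huh-7, 5116 to 5340 in Ako-3 and 4502 to 4699 in Mko-3 libraries, and none of the 12 was at or below 3 counts. Mitochondrially encoded genes took 5.52% to 6.17% of counts in Huh-7, 7.06% to 7.40% in Ako-3 and 5.75% to 5.82% in Mko-3 libraries. PTPRC and CD163 of macrophages, DCN of fibroblasts, KDR of endothelium, KRT7 of cholangiocytes and FABP2 of enterocytes were at or below 3 counts in every library. Other genes of these lists passed the low-count filter in Ako-3 against Huh-7 cells. They were 1 of 5 macrophage, 3 of 6 fibroblast, 3 of 5 endothelial, 4 of 5 cholangiocyte and 4 of 5 enterocyte genes. Among them were CD14 of macrophages, PECAM1 of endothelium, and CDX2 and VIL1 of enterocytes. The cholangiocyte list summed to 118 to 128 FPKM in Huh-7 and Ako-3 and to 166 to 171 in Mko-3 libraries, with KRT7 near 0 but KRT19 and EPCAM higher there. Over Huh-7, Ako-3 and Mko-3 libraries in turn, the enterocyte list summed to 83.9 to 92.8, 101 to 109 and 80.9 to 86.6, the macrophage list to 2.79 to 3.72, 5.43 to 5.87 and 3.39 to 4.597, and the endothelial list to 9.93 to 11.3, 13.5 to 14.7 and 7.34 to 8.02 FPKM. The sums of these 3 lists did not overlap between Ako-3 and control libraries and were higher in Ako-3. The fibroblast list summed to at most 1.27.

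Of the 10 apolipoprotein mRNAs, 7 were higher in Ako-3 than in Huh-7 cells, beside 25.5% of all genes tested. In Mko-3 cells 6 were lower than in Huh-7 cells, beside 27.1%, and 4 to 6 were lower with a library left out. APOA2 and APOH rose 2.02-fold and 2.35-fold in Ako-3 cells, and APOA1, APOE, APOC1, APOM and APOA5 rose 1.43-fold to 1.87-fold. APOA1, APOE, APOC3, APOH, APOM and APOA5 fell in Mko-3 cells, with log2 fold changes from -0.21 (APOE) to -0.59 (APOC3). In bulk RNA, fewer cells expressing a gene and less RNA per cell cannot be told apart.

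At a Benjamini-Hochberg adjusted p of 0.05 (edgeR's quasi-likelihood test), 7 of the 10 genes were higher in Ako-3 than in Huh-7 cells, where 25.5% of the 15787 genes tested were higher, and 0 of 10 were lower, where 24.4% were lower. With a log2 fold change of 1 required as well, 2 of the 10, APOA2 and APOH, were higher against 3.52% of all genes. Higher calls were 51.2% of all calls in this comparison, and 38.2% with scaling by total counts alone, under which the median of all genes moved to -0.10. For the same 7 genes all 3 Ako-3 libraries lay above all 3 Huh-7 libraries in FPKM, as did 29.3% of the genes tested. The median log2 fold change was 0.55 over the 10 genes and -0.0087 over all genes tested. In Mko-3 against Huh-7 cells, 6 of 10 were lower against 27.1% of 15745 genes, and 0 of 10 were higher against 26.9%. In FPKM, all Mko-3 libraries lay below all control libraries for 6 genes, beside 29.8% of the genes tested, and above them for APOA4, beside 30.9%. None of the 10 passed both thresholds in Mko-3 cells, where 7.22% of genes were lower and 3.82% higher by that rule. The medians were -0.31 over the 10 genes and -0.011 over all genes. A single gene compared by exact permutation of 3 against 3 libraries cannot reach a p below 0.1.

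**Figure D1:**
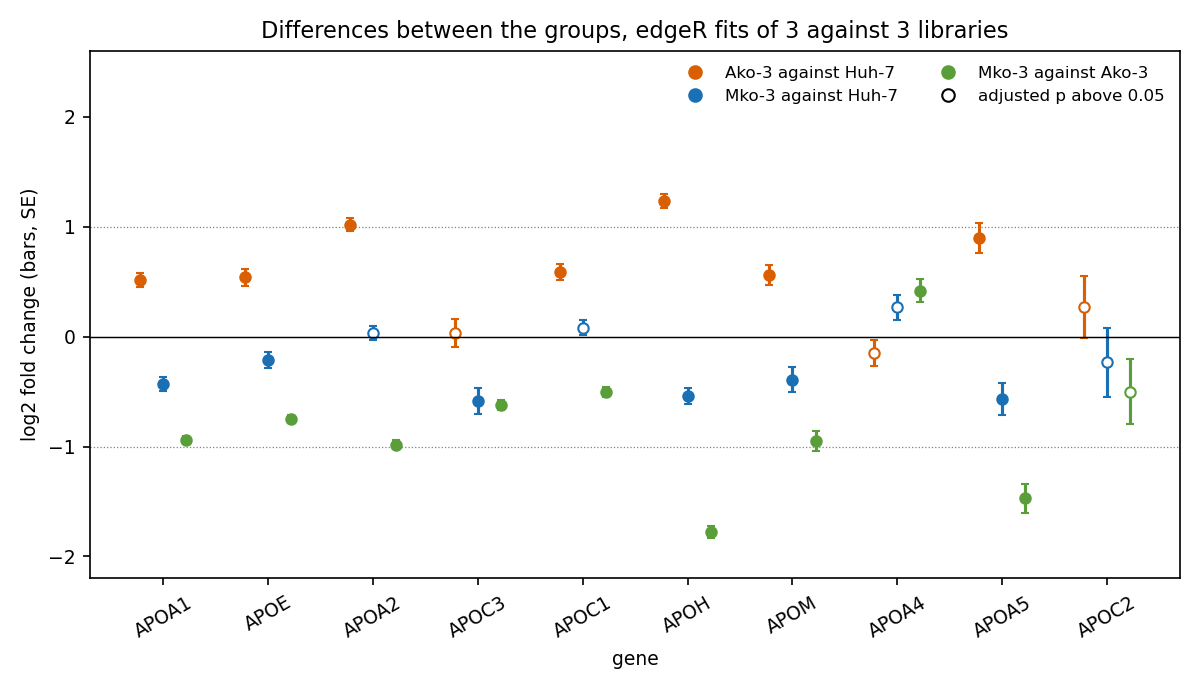
Fitted log2 fold change of each of the 10 mRNAs (vertical axis, with SE) in the 3 comparisons of 3 against 3 libraries, open points having an adjusted p above 0.05 and dotted lines marking a log2 fold change of 1 and -1. Ako-3 against Huh-7 points lie mostly above 0 (APOH 1.23), Mko-3 against Huh-7 points mostly below (APOC3 -0.59), and APOA4 is the 1 gene above 0 in Mko-3 against Ako-3 cells (0.42).

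APOA1 encodes apoA-I, the main protein of HDL and the activator of LCAT. Its levels, as deposited FPKM (counts per gene length, scaled between libraries), were 682, 642 and 586 in Huh-7 libraries 1 to 3, 865, 962 and 902 in Ako-3 and 496, 482 and 449 in Mko-3. The 3 groups did not overlap, with Ako-3 highest and Mko-3 lowest. Group means were 637 ± 48.1 (SD, n = 3), 909.6 ± 48.8 and 476 ± 24.1. APOA1 rose in Ako-3 cells by a log2 fold change of 0.51 (SE 0.06, edgeR adjusted p = 1.36e-06). In Mko-3 cells its log2 fold change was -0.43 (SE 0.06, edgeR adjusted p = 6.40e-06). Its annotated exons shared 11.2% of their bases with the antisense gene APOA1-AS, which had 0 to 6 counts.

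APOA2 encodes apoA-II, the second protein of HDL. It stood at 284, 275 and 271 FPKM in the Huh-7 libraries, 546, 591 and 547 in the Ako-3 libraries and 291, 296 and 268 in the Mko-3 libraries. The Ako-3 values lay far above the other groups, which overlapped each other. The log2 fold change was 1.02 (SE 0.06, edgeR adjusted p = 3.64e-11) in Ako-3 cells, close to the threshold of 1. Without Ako-3 library 2 it was 0.98, and with upper-quartile and total-count scaling it was 0.97 and 0.92. In Mko-3 cells the value was 0.03 (SE 0.06, edgeR adjusted p = 0.680). The ratio of APOA1 to APOA2 in FPKM was 2.30 ± 0.12 (SD, n = 3) in Huh-7, 1.62 ± 0.034 in Ako-3 and 1.67 ± 0.040 in Mko-3 cells, lower in every knockout library than in every control library.

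APOA4, which encodes apoA-IV, a protein of chylomicrons and HDL made mainly by the intestine, had no called difference from control cells. Levels were 11.1, 9.20 and 10.4 FPKM in Huh-7, 9.62, 9.91 and 8.21 in Ako-3 and 11.9, 11.2 and 14.3 in Mko-3 libraries. Huh-7 and Ako-3 overlapped, and the lowest Mko-3 value was just above the highest Huh-7 value. Neither difference from control passed the test, with log2 fold changes of -0.15 (SE 0.12, edgeR adjusted p = 0.302) in Ako-3 cells and 0.27 (SE 0.11, edgeR adjusted p = 0.0557) in Mko-3 cells. The Mko-3 value did pass without Huh-7 library 1 (0.33, edgeR adjusted p = 0.0328) and without Mko-3 library 2 (0.34, edgeR adjusted p = 0.0377). A reverse-strand gene, AP006216.3, shared 43.2% of the annotated APOA4 exon bases and had 0 to 1 counts.

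APOA5, the neighbour of APOA4 in the chromosome 11 cluster, encodes apoA-V, an activator of lipoprotein lipase. The libraries gave 5.41, 4.66 and 4.76 FPKM in Huh-7, 8.47, 11.4 and 7.90 in Ako-3 and 2.87, 3.58 and 3.65 in Mko-3. No groups overlapped, and Ako-3 library 2 was the highest of all. APOA5 rose in Ako-3 cells by 0.90 (SE 0.14, edgeR adjusted p = 1.71e-05) on the log2 scale, which was 0.73 without Ako-3 library 2 and 1.01, past both thresholds, without Ako-3 library 3. In Mko-3 cells the log2 fold change was -0.57 (SE 0.15, edgeR adjusted p = 0.00238). Its counts were 99 to 439 per library.

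APOE encodes apoE, a ligand of lipoprotein receptors. The 3 Huh-7 libraries had 679, 555 and 545 FPKM, the Ako-3 libraries 818, 930.4 and 848 and the Mko-3 libraries 536, 508 and 506. Huh-7 library 1 stood above the other control libraries, and the groups did not overlap. In Ako-3 cells the log2 fold change was 0.54 (SE 0.08, edgeR adjusted p = 1.93e-05). In Mko-3 cells it was -0.21 (SE 0.07, edgeR adjusted p = 0.0176), a call that was lost without Huh-7 library 1 (-0.10, edgeR adjusted p = 0.115), without Mko-3 library 2 (-0.19, edgeR adjusted p = 0.0799) and without Mko-3 library 3 (-0.18, edgeR adjusted p = 0.0932).

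APOC1 encodes apoC-I, which inhibits CETP and lipoprotein uptake. Values were 133, 115 and 113 FPKM in Huh-7, 167, 191 and 184 in Ako-3 and 127, 126 and 132 in Mko-3 libraries. Ako-3 lay above the other groups, and Huh-7 and Mko-3 overlapped. APOC1 rose in Ako-3 cells by 0.59 (SE 0.07, edgeR adjusted p = 1.19e-06) on the log2 scale, and its Mko-3 value was 0.08 (SE 0.07, edgeR adjusted p = 0.320). Without Huh-7 library 1 the Mko-3 value was 0.16 (edgeR adjusted p = 0.033). The gene AC011481.3 shared 40.7% of APOC1 exon bases and had 3 to 16 counts, and the near copy APOC1P1 had 3 to 36.

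APOC2, whose product apoC-II is the cofactor of lipoprotein lipase, had low counts. It had 23 to 32 counts in Huh-7, 32 to 37 in Ako-3 and 15 to 28 in Mko-3 libraries, or 0.930, 1.39 and 1.33 FPKM, 1.47, 1.33 and 1.61 FPKM and 1.19, 1.16 and 0.740 FPKM. Both knockouts overlapped the control cells. The log2 fold changes of 0.27 (SE 0.28, edgeR adjusted p = 0.444) in Ako-3 and -0.23 (SE 0.32, edgeR adjusted p = 0.553) in Mko-3 cells did not pass the test, and their SE are the widest of the 10. The read-through gene APOC4-APOC2, on the same strand, shared 53.5% of APOC2 exon bases and had 0 to 8 counts. How reads in the shared bases were assigned is not given in the sources used here. Whether the overlap lowered the APOC2 counts was not tested.

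APOC3 encodes apoC-III, an inhibitor of lipoprotein lipase and of remnant uptake. Its levels were 312, 214 and 278 FPKM in Huh-7, 279, 294 and 253 in Ako-3 and 186, 174 and 180.3 in Mko-3 libraries. The control libraries had the widest spread, Ako-3 lay inside it, and Mko-3 lay below all of them. The Ako-3 log2 fold change was 0.03 (SE 0.13, edgeR adjusted p = 0.848), and its sign turned with upper-quartile and total-count scaling and without Huh-7 or Ako-3 library 2. In Mko-3 cells APOC3 fell, with a log2 fold change of -0.59 (SE 0.12, edgeR adjusted p = 0.00189).

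APOM encodes apoM, a lipocalin of HDL. It stood at 11.6, 10.8 and 11.4 FPKM in Huh-7, 15.7, 17.6 and 16.5 in Ako-3 and 9.23, 9.35 and 7.35 in Mko-3 libraries. The groups did not overlap, with Mko-3 library 3 the lowest. Its log2 fold change was 0.56 (SE 0.09, edgeR adjusted p = 4.57e-05) in Ako-3 cells and -0.39 (SE 0.11, edgeR adjusted p = 0.00551) in Mko-3 cells, and the latter was -0.28 (edgeR adjusted p = 0.0635) without Mko-3 library 3. BAG6, on the opposite strand, shared 11.0% of its exon bases and had 4559 to 6201 counts. The strand setting of the counting is not given in the sources used here, so reads of such overlapping genes cannot be told apart.

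APOH, whose product is also called beta-2-glycoprotein I, had the widest difference of the 10 genes between Ako-3 cells and each of the other groups. Levels of 53.7, 53.4 and 52.6 FPKM in Huh-7, 126, 129 and 123 in Ako-3 and 34.7, 39.3 and 36.5 in Mko-3 libraries were narrow within each group and did not overlap. Group means were 53.3 ± 0.574 (SD, n = 3), 126 ± 2.91 and 36.8 ± 2.34. APOH rose by 1.23 (SE 0.06, edgeR adjusted p = 3.90e-12) on the log2 scale in Ako-3 cells and changed by -0.54 (SE 0.07, edgeR adjusted p = 2.16e-06) in Mko-3 cells. Among protein-coding genes ordered by mean FPKM it ranked 670 in Huh-7, 244 in Ako-3 and 1214 in Mko-3 cells.

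**Figure D2:**
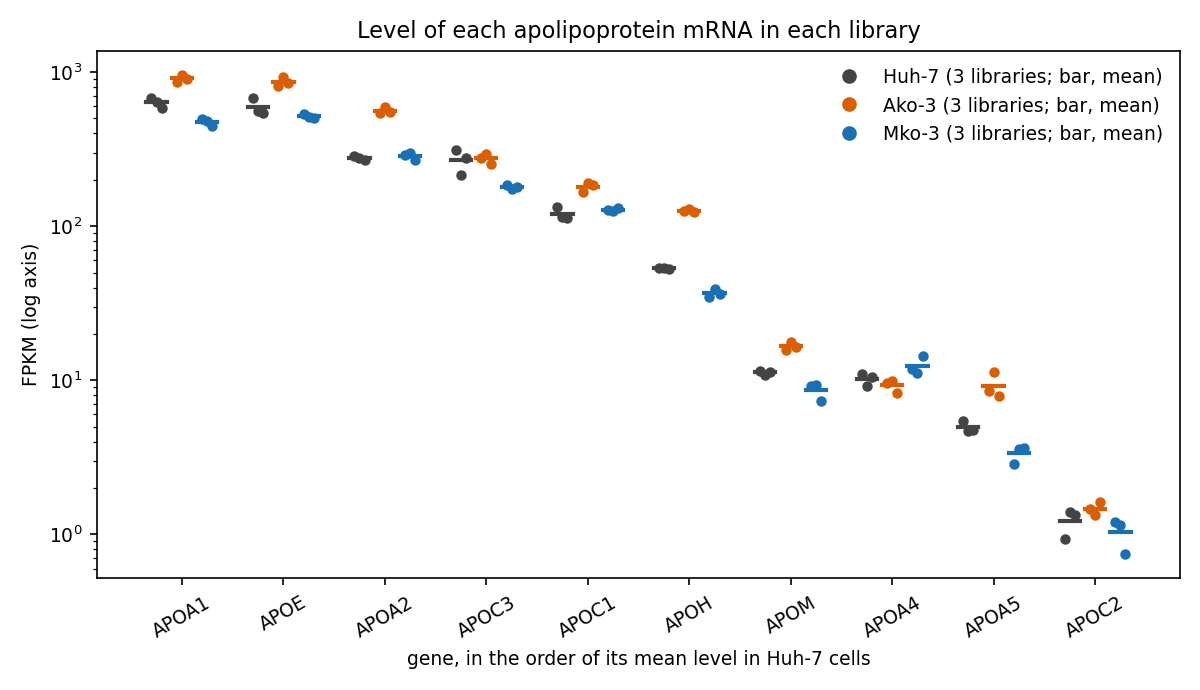
FPKM of each of the 10 mRNAs (log axis) in each library, with 3 points per group and a bar at the group mean, genes ordered by their level in Huh-7 cells. APOA1 and APOE lie highest, and the Ako-3 points of APOA2 (546 to 591) and APOH (123 to 129) stand clear of the control points (271 to 284 and 52.6 to 53.7).

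Per length, APOA1 was the most abundant in Huh-7 cells, followed by APOE, APOA2, APOC3, APOC1, APOH, APOM, APOA4, APOA5 and APOC2. The library ranges of APOA1 and APOE, of APOA2 and APOC3 and of APOM and APOA4 overlapped in Huh-7 cells, so the order within those pairs is not resolved. In Ako-3 cells the order was the same, with overlap between APOA1 and APOE and between APOA4 and APOA5. In Mko-3 cells APOE stood above APOA1 and APOA4 above APOM, and no neighbours in the order overlapped. APOA1 ranked 29, 22 and 37 among protein-coding genes in Huh-7, Ako-3 and Mko-3 cells.

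The 10 mRNAs summed to 1975 ± 170.1 FPKM (SD, n = 3) in Huh-7, 2955 ± 161 in Ako-3 and 1648 ± 48.5 in Mko-3 cells. Every Ako-3 sum (2835 to 3137) lay above every control sum (1874 to 2172), and every Mko-3 sum (1598 to 1695) lay below. The Ako-3 mean was 149.6% and the Mko-3 mean 83.4% of the control mean, or 132.9% and 79.1% in TPM computed from the same counts and gene lengths. Of all counts, the 10 genes took 0.312% ± 0.029 in Huh-7, 0.434% ± 0.026 in Ako-3 and 0.247% ± 0.0086 in Mko-3 cells. APOA1, APOE, APOA2 and APOC3 made up 89.8% ± 0.23, 88.4% ± 0.17 and 88.4% ± 0.59 of the sum. The APOA2 share was 14.1% ± 0.85 in Huh-7, 19.0% ± 0.23 in Ako-3 and 17.3% ± 0.59 in Mko-3 cells.

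**Figure D3:**
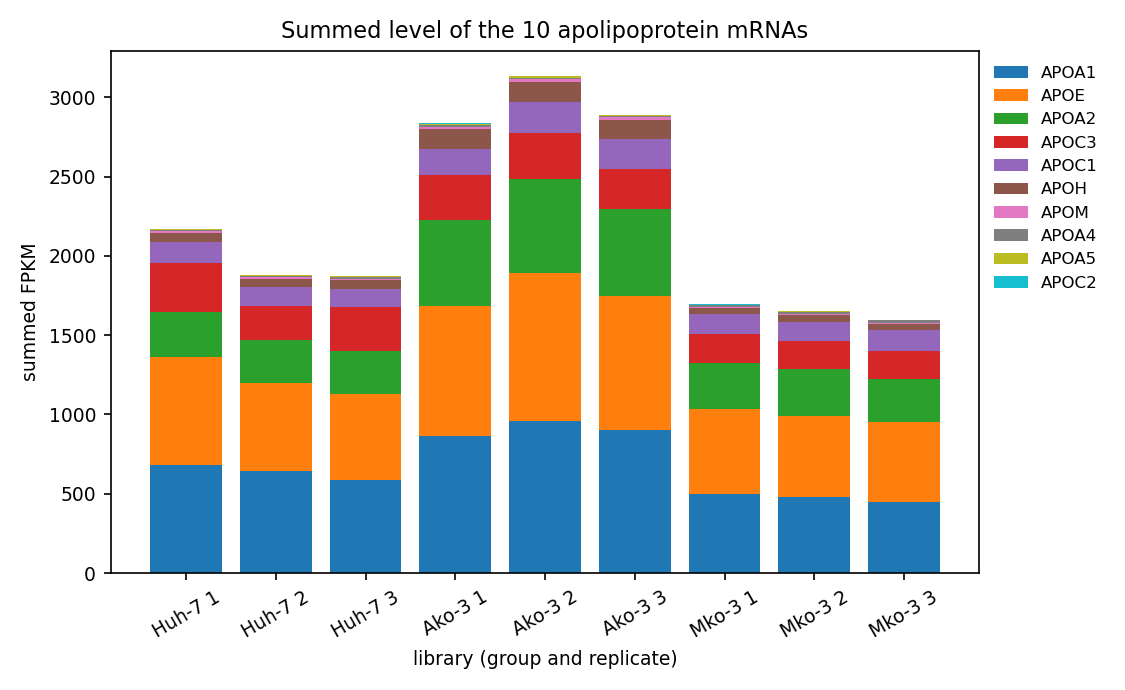
Stacked FPKM of the 10 mRNAs (vertical axis) in each of the 9 libraries, each colour 1 gene. The Ako-3 bars reach 2835 to 3137, above the control bars (1874 to 2172), and the Mko-3 bars reach 1598 to 1695.

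The clones were also compared with each other, which does not use the control libraries. Control libraries differed more from each other than those of a clone. The chi-square of counts per degree of freedom between 2 libraries was 7.02 to 8.93 in Huh-7, 3.13 to 3.46 in Ako-3 and 2.43 to 2.84 in Mko-3 cells. The part of this in the smaller adjusted p between the clones was not tested. In Mko-3 against Ako-3 cells, 8 of the 10 mRNAs were lower at the adjusted p threshold (edgeR), where 20.6% of 15528 genes were lower, and 1, APOA4, was higher, where 21.1% were higher. APOH and APOA5 passed both thresholds, 2 of 10 against 3.47% of all genes. The median log2 fold change of the 10 was -0.85, against 0.0048 over all genes. In FPKM, all Mko-3 libraries lay below all Ako-3 libraries for 9 of the 10, against 23.6% of all genes, and above them for APOA4, against 26.2%. APOH was 3.43-fold lower in Mko-3 cells, a log2 fold change of -1.78 (SE 0.05, edgeR adjusted p = 3.07e-42). APOA5 was 2.78-fold lower, at -1.47 (SE 0.13, edgeR adjusted p = 3.11e-15). APOA2, APOM and APOA1 were close to the log2 threshold, at -0.98, -0.95 and -0.94, and APOA2 and APOM passed it without Mko-3 library 2 (-1.01 and -1.01). APOE, APOC3 and APOC1 had log2 fold changes of -0.75, -0.62 and -0.50. APOA4 was 1.34-fold higher, at 0.42 (SE 0.10, edgeR adjusted p = 6.95e-04), and APOC2, at -0.50 (SE 0.30, edgeR adjusted p = 0.171), did not pass.

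The hepatocyte markers were counted beside these results. Of 12 markers, 8 rose and 0 fell in Ako-3 cells (median log2 fold change 0.41), where 25.5% and 24.4% of all genes were higher and lower. In Mko-3 cells 3 rose and 5 fell (-0.12), beside 26.9% and 27.1% of all genes. In Mko-3 against Ako-3 cells 2 rose and 9 fell (-0.49), where the shares were 21.1% and 20.6%. HP, a haemoglobin-binding plasma protein, had 1.53 in Ako-3 and -1.65 in Mko-3 cells, AHSG, a plasma glycoprotein, 0.90 and -0.96, and ALB, albumin, 0.02 (edgeR adjusted p = 0.751) and -0.49. AFP, the fetal albumin homologue, was higher in both, by 0.15 and 0.80, as were TTR, by 0.90 and 0.60, and HNF4A, by 0.70 and 0.30. SERPINA1 and TF were higher in Ako-3 cells, by 0.44 and 0.72, and not called in Mko-3 cells, at -0.04 and 0.04. FGA had 0.39 and -0.45. FGB and TAT were called in neither clone, at -0.13 and 0.20 in Ako-3 and 0.10 and -0.19 in Mko-3 cells. FGG was lower in Mko-3 cells only, at -0.03 and -1.25. Of 5 cholangiocyte markers, KRT19, a keratin, and EPCAM, an epithelial adhesion molecule, rose in both clones, by 0.50 and 0.66 in Ako-3 and by 2.92 and 1.17 in Mko-3 cells, and SOX9, a progenitor transcription factor, fell in both, at -0.45 and -0.41. The parts of the marker lists and of the mitochondrial share in the apolipoprotein differences were not tested.

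Genes near the apolipoproteins were examined within 250 kb. Around the APOA5 to APOA1 cluster 3 of 11 listed genes were tested. ZPR1, BUD13 and SIK3 had log2 fold changes of 0.05, 0.37 and -0.10 in Ako-3 cells, where none passed the test at an adjusted p of 0.05 in edgeR. In Mko-3 cells the values were 0.06, 0.39 and -0.16, and 1 passed, BUD13 (edgeR adjusted p = 0.047), a splicing factor. Of all genes tested, 25.5% rose and 24.4% fell in the Ako-3 clone, and 26.9% and 27.1% in the Mko-3 clone. With 3 neighbours, the counts called cannot be told apart from these shares. The 4 apolipoprotein genes between the neighbours ranged from -0.15 to 0.90 in Ako-3 and from -0.59 to 0.27 in Mko-3 cells.

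Around APOE, APOC1 and APOC2, 18 of 37 listed genes were tested. Of the 18, 8 rose and 4 fell in Ako-3 cells, beside 25.5% and 24.4% of all genes. In Mko-3 cells 7 rose and 7 fell, beside 26.9% and 27.1%. TOMM40, a mitochondrial import channel gene next to APOE, was higher in both clones, by 0.87 and 0.73. NECTIN2, a cell adhesion gene, had 0.28 and 0.19, and CLPTM1, on the APOC2 side, 0.69 and 0.49. RELB, an NF-kappaB subunit, was lower in both, at -1.56 and -1.26. APOE, between TOMM40 and APOC1, had 0.54 and -0.21.

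**Figure D4:**
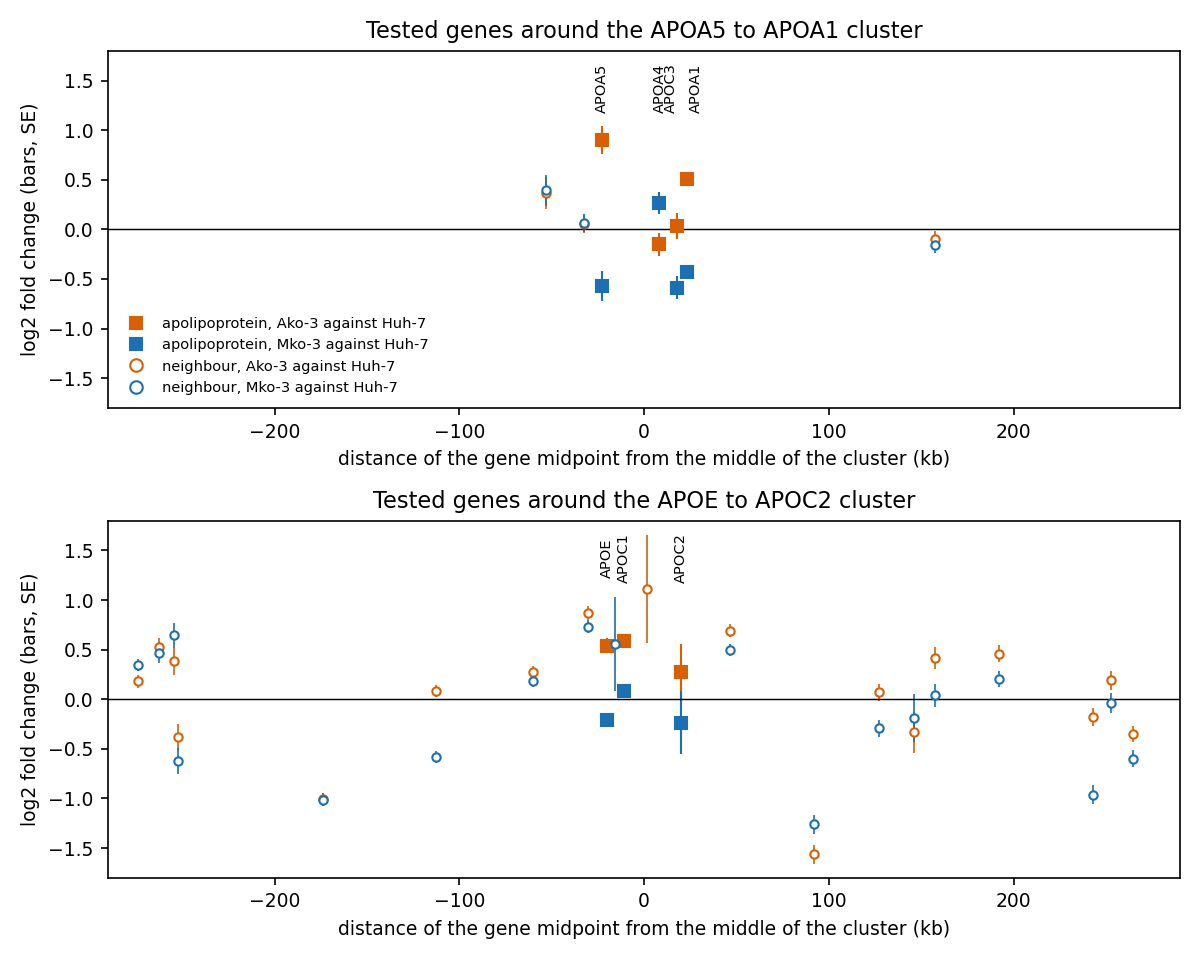
Log2 fold change against Huh-7 cells (vertical axis, with SE) of the apolipoprotein genes (squares) and of other tested genes within 250 kb (open circles) by distance in kb from the middle of the chromosome 11 cluster (top) and the chromosome 19 cluster (bottom). The 3 tested chromosome 11 neighbours lie between -0.16 and 0.39 in both clones. The apolipoproteins there range from -0.15 (APOA4) to 0.90 (APOA5) in Ako-3 and from -0.59 (APOC3) to 0.27 (APOA4) in Mko-3 cells. The chromosome 19 neighbours range more widely than the apolipoproteins between them. They lie from -1.56 (RELB) to 1.11 (APOC1P1, not called) in Ako-3 and from -1.26 (RELB) to 0.73 (TOMM40) in Mko-3 cells.

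The other genes lay alone among genes of other functions. The counts of their neighbours stand beside 25.5% of all genes higher and 24.4% lower in Ako-3 cells, and 26.9% and 27.1% in Mko-3 cells. Next to APOH, CEP112, a centrosomal protein gene, had -0.75 in Ako-3 and -0.62 in Mko-3 cells, and PRKCA, a protein kinase C, -0.19 and -0.55, so both tested neighbours were lower in both clones. Around APOA2, 4 of 16 tested genes rose and 1 fell in Ako-3 cells, while 3 of 15 rose and 5 fell in Mko-3 cells. Of the nearest, PPOX (haem synthesis), TOMM40L and NR1I3 (a xenobiotic nuclear receptor), had -0.21, 0.31 and -0.16 in Ako-3 cells, all below the APOA2 value. Of these, TOMM40L passed the test (edgeR adjusted p = 0.00552), and PPOX and NR1I3 did not (edgeR adjusted p = 0.0816 and 0.384). In Mko-3 cells the same 3 genes had -0.61, 0.21 and -0.58, and all passed the test. Around APOM, 9 of 30 tested genes rose and 7 fell in Ako-3 cells, while 6 rose and 4 fell in Mko-3 cells. BAG6, a chaperone gene that overlaps APOM, had 0.01 (SE 0.06, edgeR adjusted p = 0.873) in Ako-3 and -0.07 (SE 0.06, edgeR adjusted p = 0.306) in Mko-3 cells. The nearest on either side, PRRC2A, AIF1, C6orf47 and GPANK1, had 0.16, -0.60, 0.30 and 0.21 in Ako-3 cells and 0.09, -0.64, 0.40 and 0.00 in Mko-3 cells. Of these, C6orf47 passed the test in both clones, PRRC2A passed it in Ako-3 cells, and AIF1 and GPANK1 in neither.

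The genes whose profile over the 9 libraries was nearest to that of APOA2, APOA5 and APOH were sought by Euclidean distance between log2 CPM values centred on the control mean, over 16159 genes. For APOA2 the nearest was GBA3, a cytosolic glucosidase gene, at a distance of 0.286, followed by ORM2, an acute-phase plasma protein gene, at 0.295. For APOH it was HYAL1, a hyaluronidase gene, at 0.401, followed by MAT1A, the hepatic methionine adenosyltransferase gene, at 0.584. For APOA5 it was AC016876.1 at 0.417, followed by NPNT, an extracellular matrix protein gene, at 0.460. Among the 10 apolipoprotein mRNAs themselves, APOA1 and APOM were nearest to each other, at 0.257, and APOA1 and APOE next, at 0.428. These are descriptions over libraries that share their groups.

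The listed transcription factors of apolipoprotein genes moved in both directions. The shares of all genes higher and lower were 25.5% and 24.4% in Ako-3 and 26.9% and 27.1% in Mko-3 cells, and the counts of this and the following lists stand beside them. Of 41 tested of 43 listed, 10 had higher and 16 had lower levels in the Ako-3 clone (median log2 fold change -0.13) and 8 higher and 23 lower in Mko-3 cells (-0.22), beside medians of -0.0087 and -0.011 over all genes. HNF4A, a nuclear receptor of hepatocyte genes, stood at 64.0 ± 0.621 FPKM (SD, n = 3) in Huh-7, 104 ± 1.26 in Ako-3 and 79.4 ± 1.74 in Mko-3 cells. It was higher in both clones, with log2 fold changes of 0.70 (SE 0.06, edgeR adjusted p = 3.41e-09) and 0.30 (SE 0.06, edgeR adjusted p = 1.07e-04). CEBPB, a leucine zipper factor of the acute-phase response, was lower in both at -0.75 and -1.29. MLXIPL, the carbohydrate-responsive factor ChREBP, had -0.64 and -2.13. NR1H4, the bile acid receptor FXR, had -0.41 and -0.98, and NR1D2, a repressor of the REV-ERB family, -0.83 and -0.84.

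Among lipases, transfer proteins and their regulators, no single direction was seen. Of 15 tested of 18 listed, 6 rose and 4 fell in Ako-3 cells (median 0.03) and 6 higher and 5 lower in Mko-3 cells (0.14). ANGPTL8, a secreted regulator of lipoprotein lipase, was higher in Ako-3 and lower in Mko-3 cells, at 1.63 and -0.96. GPLD1, a phospholipase carried on HDL, was higher in both at 1.73 and 1.76, from a low mean of 0.668 FPKM in Huh-7 cells. PLTP, the phospholipid transfer protein of plasma, had 0.19 and -1.20, and LIPA, lysosomal acid lipase, -0.63 and -0.80.

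Receptors and lipid exporters showed no single direction. Of 18 tested of 20 listed, 6 rose and 6 fell in Ako-3 cells (median -0.05) and 5 higher and 7 lower in Mko-3 cells (-0.10). LSR, a receptor for lipolysed remnants, was higher in both at 1.06 and 1.96. ABCA1, which loads lipid onto apoA-I, was higher in both at 0.62 and 0.34. The sterol exporter subunits ABCG5 and ABCG8 had -0.01 (edgeR adjusted p = 0.977) and 0.62 in Ako-3 cells and were lower in Mko-3 cells at -2.55 and -1.82. Their mean levels were low, at 3.51 and 3.14 FPKM in Huh-7 and 0.610 and 0.893 in Mko-3 cells.

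Lipoprotein assembly genes, a list that includes the targeted APOB and MTTP, had 19 of 20 tested, with 4 higher and 10 lower in Ako-3 cells (median -0.15) and 4 higher and 8 lower in Mko-3 cells (-0.05). ARFGAP1, a regulator of coated vesicles, was lower in both at -0.83 and -0.91, as were SEC24D, a COPII coat subunit, at -0.47 and -0.41, and VMP1, an ER membrane scramblase, at -0.38 and -0.34. CANX, the ER chaperone calnexin, was higher in both at 0.21 and 0.51.

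Other apolipoproteins and lipoprotein-bound proteins were tested for comparison, 15 of 24 in Ako-3 and 16 of 24 in Mko-3 cells. There were 6 that rose and 1 that fell in Ako-3 cells (median 0.13), and 5 that rose and 6 that fell in Mko-3 cells (-0.25). APOL1, an apolipoprotein of HDL, had 0.80 (SE 0.31, edgeR adjusted p = 0.036) in Ako-3 and 2.42 (SE 0.25) in Mko-3 cells. Its mean level was low, at 0.381 FPKM in Huh-7, 0.676 in Ako-3 and 2.11 in Mko-3 cells. APOL2, a cytoplasmic relative, had 0.46 and 0.41. TTR, the thyroxine carrier transthyretin, which is also among the hepatocyte markers, had 0.90 and 0.60. PON2, an intracellular paraoxonase, had 0.34 and 0.37, and CLU, apolipoprotein J, -0.01 (edgeR adjusted p = 0.95) and -0.53.

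**Figure D5:**
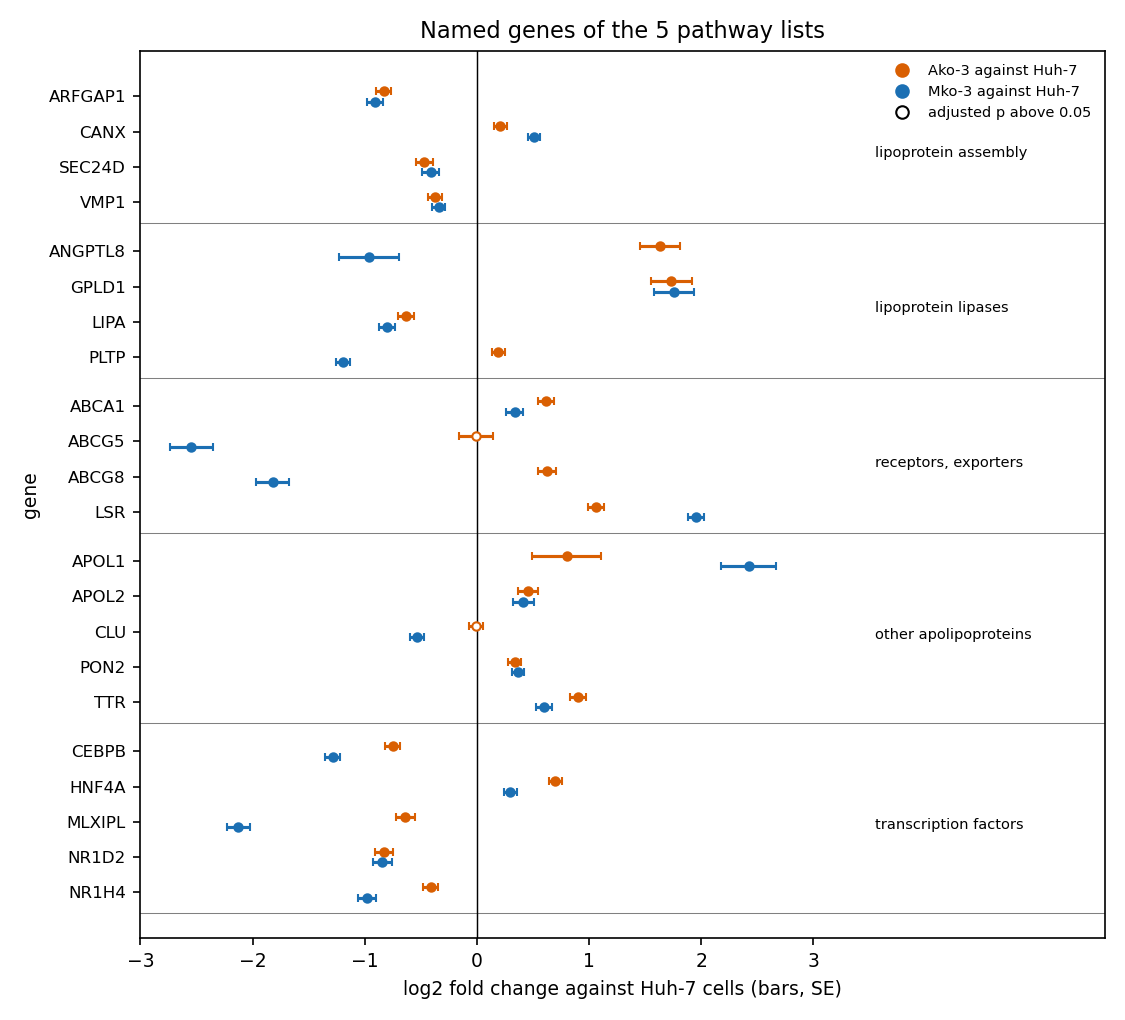
Log2 fold change against Huh-7 cells (horizontal axis, with SE) of the named genes of 5 pathway lists in Ako-3 and Mko-3 cells, for the genes given in the text with MTTP left out, open points having an adjusted p above 0.05. APOL1 has the highest value plotted (2.42, in Mko-3 cells), ABCG5 the lowest in Mko-3 cells (-2.55), and PLTP, ANGPTL8 and ABCG8 lie on opposite sides of 0 in the 2 clones. The mean level of APOL1 was low, at 0.381 FPKM in Huh-7 cells.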

How the data were processed

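Poly(A) RNA of 9 Huh-7 libraries was analysed. The submitters' processing notes name HISAT2 2.0.5 and featureCounts 1.5.0-p3, and the coordinates in the files are those of hg38. The authors deposited raw read counts per gene without normalization. The authors also deposited FPKM values, made from those counts, the gene length in bases and a library size scaled over all 9 libraries. No per-sample column was left unused. Libraries were grouped by their labels, and total counts of 14638727 to 20179760 per library leave wide errors for genes near the minimum count.

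For each of 3 comparisons, the counts of its 6 libraries were fitted by themselves in edgeR 4.0.16 (R 4.3.3). Genes were kept by filterByExpr with 10 as the minimum count, scaled by TMM and tested by quasi-likelihood, with Benjamini-Hochberg adjustment over all genes tested. The calling thresholds, an adjusted p of 0.05 and a log2 fold change of 1, are those of the study. The scripts were tested on simulated counts. The SE of a log2 fold change was derived from it and the F statistic. Alternatives were DESeq2 1.42.0, other scalings and filters, a replicate term, 1 fit of 9 libraries, and each library left out in turn.

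The 10 apolipoproteins and the gene lists were chosen with earlier results of these data known. All 10 are named, with the genes of smallest adjusted p from each list (up to 3 per knockout), the nearest tested genes within 250 kb, and the genes of nearest profile (log2 CPM with a prior count of 2). HP, AHSG, ALB, AFP, SERPINA1, TF, FGA, FGB, FGG, TAT, KRT19, EPCAM, SOX9, CD14, PECAM1, CDX2, VIL1 and BAG6 were named after their values were seen. Some genes that this rule names are not reported here, and they remain in the counts and medians. GENCODE release 44 exons gave the shared bases. Promoters and their names came from RefSeq, GRCh38.p14.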

Additional observations from a re-analysis of the deposited data

Results flagged for a closer look

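The effects of the 2 knockouts differed from each other for 9 of the 10 apolipoprotein mRNAs, 8 of them lower and 1 higher in Mko-3 cells, where 20.6% and 21.1% of all genes were lower and higher. The difference was tested directly, as Mko-3 against Ako-3 cells, in which the shared control libraries cancel, with edgeR's quasi-likelihood test and Benjamini-Hochberg adjustment over all 15528 genes. It was lowest for APOH, at -1.78 (SE 0.05, edgeR adjusted p = 3.07e-42) on the log2 scale, and APOA5, at -1.47 (SE 0.13, edgeR adjusted p = 3.11e-15). APOA2, at -0.98 (SE 0.04, edgeR adjusted p = 3.65e-33), APOM, at -0.95 (SE 0.09, edgeR adjusted p = 3.03e-14), and APOA1, at -0.94 (SE 0.04, edgeR adjusted p = 4.23e-30), followed. APOE, at -0.75 (SE 0.04, edgeR adjusted p = 5.75e-25), APOC3, at -0.62 (SE 0.05, edgeR adjusted p = 2.37e-19), and APOC1, at -0.50 (SE 0.05, edgeR adjusted p = 1.43e-15), were smaller. APOA4 differed in the other direction, at 0.42 (SE 0.10, edgeR adjusted p = 6.95e-04). All Mko-3 libraries were below all Ako-3 libraries in FPKM for the first 8 of these genes, as for 23.6% of all genes, and above them for APOA4, as for 26.2%. Each knockout is 1 clone, and whether the clones were grown and sequenced together is not stated. Differences between the clones, between the lost genes and between batches therefore cannot be told apart.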

How the results depend on the processing

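All 140 refitted member values of Mko-3 against Ako-3 cells (10 genes under 14 alternatives) kept their direction and their side of the adjusted p threshold. Against Huh-7 cells, the sign turned for APOC3 in Ako-3 cells with upper-quartile factors (-0.018) and total counts (-0.061) and without 1 library (from -0.10 without Huh-7 library 2, and -0.01 without Ako-3 library 2, to 0.16), and for APOA2 in Mko-3 cells with upper-quartile factors (-0.035) and total counts (-0.036). None of these passed the test. Total-count scaling moved the median of all genes in Ako-3 cells to -0.10.

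Genes past both thresholds fell from 1345 to 841 (Ako-3), from 1739 to 1113 (Mko-3) and from 890 to 511 (between the clones) with at least 10 counts in every library. That filter leaves out genes below 10 counts in any library of the comparison. Members higher in Ako-3 cells by both thresholds were 1 in place of 2 with upper-quartile factors and with total counts, and 1 to 3 with a library left out (1 without Ako-3 library 2, 3 without Ako-3 library 3). Members higher in Mko-3 cells at the adjusted p were 1 in place of 0 without a low-count filter and in 1 fit of 9 libraries, in each case APOA4 (edgeR adjusted p = 0.0353 and 0.0466), and 0 to 2 with a library left out, 2 without Huh-7 library 1. Members lower in Mko-3 than in Ako-3 cells by both thresholds were 2 to 4 (4 without Mko-3 library 2). Members lower in Mko-3 than in Huh-7 cells were 4 to 6 (4 without Mko-3 library 3, where APOE and APOM were lost). The summed level was 132.9% in Ako-3 and 79.1% in Mko-3 cells in TPM, against 149.6% and 83.4% in FPKM, and 81.3% to 87.8% in Mko-3 cells with a library left out. The cause of these changes was not tested.

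With the replicate number as a block, APOA4 was called higher in Mko-3 cells (0.27, edgeR adjusted p = 0.0411), so that 1 member in place of 0 was higher. Genes called at the adjusted p went from 7880 to 7397, 8509 to 8562 and 6462 to 6612, and no other member's call changed. Same-numbered libraries correlated at -0.07 to 0.06, and 6 of 18 comparisons found a library's best partner under its own number, so the numbers were not taken as pairs. APOC2 had 15 to 37 counts, and the parts of depth and of its overlap with APOC4-APOC2 in that were not tested.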
